A study of Mus musculus with 4 samples.

Results

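The CDK inhibitors and pocket proteins are 9 genes that control passage from G1 into S phase: the Cip/Kip inhibitors Cdkn1a (p21) and Cdkn1b (p27), the Ink4 inhibitors Cdkn2a, Cdkn2b, Cdkn2c and Cdkn2d, and the retinoblastoma family Rb1, Rbl1 (p107) and Rbl2 (p130). Members were all probe sets, the groups of short probes that read one transcript, whose platform gene symbol is one of these 9. They were 16 of the 34945 probe sets with a single gene symbol, and the genes 9 of 18193. Of the 16, 12 reached the minimum mean signal of 68.0 used for counting, and each of the 9 genes kept at least 1. The other 4 had means between 24.3 and 26.5 and read at or near background; the dimmest member that passed had a mean of 78.5.

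The cells were fibroblasts cultured from mouse embryos, and their RNA was hybridized to 4 Affymetrix arrays, 1 per group. The groups were Wip1+/+ cells at 0 h without radiation, Wip1+/+ cells 4 h after 5 Gy of gamma radiation, Wip1-/- cells at 0 h without radiation and Wip1-/- cells 4 h after 5 Gy. Wip1, the product of Ppm1d, is a phosphatase known to dampen p53 and the kinases of the DNA damage response; the study asked about p53 target genes. The sources used here do not give strain, passage, number of embryos or allele design, and no array holds unirradiated cells kept for 4 h, so radiation and time in culture cannot be told apart. With 1 array per group no difference could be tested, and precision is limited by how few arrays there are.

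Cip/Kip inhibitors bind complexes of cyclins with CDKs, and Cdkn1a is the best known transcriptional target of p53 in damaged cells. Ink4 inhibitors bind Cdk4 and Cdk6 and keep D-type cyclins from activating them; in cultured embryonic fibroblasts Cdkn2a, which encodes both p16Ink4a and the p53 activator p19Arf, is known to accumulate as the cells approach senescence. When these CDKs are held in check, the pocket proteins stay underphosphorylated and keep E2F factors from activating replication genes; Rbl1 and Rbl2 also form the DREAM complex, through which p53 lowers cell cycle genes.

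Start site windows of the members, from 250 bases before to 50 bases after the start, were taken from RefSeq on GRCm38.p6. They matched 8 of the 9 genes, with 11 windows in all; Rb1 had no entry. The window of the upstream Cdkn1a start, at chr17:29090729-29091028 on the plus strand, is shown because it holds the kind of site through which p53 is known to act on this gene. Capitals mark a stretch of 20 bases, beginning 51 bases before the start, that matches the p53 consensus of 2 half-sites without spacer at all but 1 base.

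Cdkn1a, upstream start: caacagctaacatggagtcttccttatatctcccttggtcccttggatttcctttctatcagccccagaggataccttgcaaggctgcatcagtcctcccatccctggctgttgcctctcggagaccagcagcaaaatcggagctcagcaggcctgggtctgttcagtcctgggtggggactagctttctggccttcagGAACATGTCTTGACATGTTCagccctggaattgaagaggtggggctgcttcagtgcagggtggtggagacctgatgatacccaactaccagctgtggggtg

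The p53 consensus was searched in 3 ways, and the one shown was chosen after this window was seen. Without mismatch or spacer 3 of 32851 RefSeq windows matched (0.00913%), and this one did not. With 1 mismatch allowed 29 did (0.0883%), among them this one and those of Ccng1, Gtse1 and Rps27l. With no mismatch but a spacer of up to 13 bases between the half-sites 24 did (0.0731%), this window again among them. There the match pairs ggactagctt, upstream of the capitals, with GAACATGTCT, the first marked half-site. It is thus not a second match of the marked stretch, whose mismatch lies in its other half-site. The second Cdkn1a window, at chr17:29093519-29093818, matched in none of these ways, nor did the remaining member windows; a match describes letters and is not a site shown to be bound. The E2F core was searched on both strands as 4 words, TTTCCCGC, TTTCGCGC, TTTGCCGC and TTTGGCGC. Of the 11 member windows, 2 held 1 of these words, against 744 of 32851 windows (2.26%). Every word contains CG, and the 2 windows held 29 (Rbl1) and 45 (Cdkn2a) CG, against a median of 7 over all windows. Their share of G and C was 64.0% and 77.0%, against a median of 52.7%. The comparison with all windows was not matched for this composition. These 2 windows are shown because Rbl1 and p19Arf are known targets of E2F. Capitals mark the word, which begins 18 bases before the start in Rbl1, at chr2:157204485-157204784, and 99 bases before it in Cdkn2a, at chr4:89294570-89294869, both on the minus strand.

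Rbl1: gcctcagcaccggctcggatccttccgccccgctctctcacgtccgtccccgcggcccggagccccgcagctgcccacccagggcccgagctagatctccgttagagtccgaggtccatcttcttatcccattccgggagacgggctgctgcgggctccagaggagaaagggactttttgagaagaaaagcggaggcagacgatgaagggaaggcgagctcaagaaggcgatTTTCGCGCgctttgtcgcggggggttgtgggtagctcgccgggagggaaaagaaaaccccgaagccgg

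Cdkn2a, upstream start: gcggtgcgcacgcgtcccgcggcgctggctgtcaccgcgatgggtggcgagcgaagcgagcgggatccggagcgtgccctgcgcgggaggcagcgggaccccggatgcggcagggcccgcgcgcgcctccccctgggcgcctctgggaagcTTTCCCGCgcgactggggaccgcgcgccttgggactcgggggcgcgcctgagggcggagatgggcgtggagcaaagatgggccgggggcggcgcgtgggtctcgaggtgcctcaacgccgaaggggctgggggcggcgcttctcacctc

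The sources used here do not place the array's probes relative to these starts, so no signal can be assigned to 1 start or, for Cdkn2a, to 1 of its 2 products.

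Some facts of the arrays bear on every value below. Ppm1d read 375, 364, 504 and 482 by one probe set and 317, 463, 219 and 561 by the other, in the order Wip1+/+ at 0 h, Wip1+/+ at 4 h, Wip1-/- at 0 h, Wip1-/- at 4 h. Neither probe set was lower on both arrays of the knockout than on both Wip1+/+ arrays. Whether its probes lie inside the deleted part is not known here, so Ppm1d does not check the labels, and the knockout arrays are called arrays labelled Wip1-/-. The unirradiated array labelled Wip1-/- stood apart: the SD of the log2 ratio over 18 spike-in controls was 0.436 to 0.469 in pairs with it and 0.0738 to 0.103 in pairs without it. Fibroblast markers read above the floor, a signal of 46.5 under which values were set to that level, in 19 of 21 probe sets on every array.

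**Figure D1:**
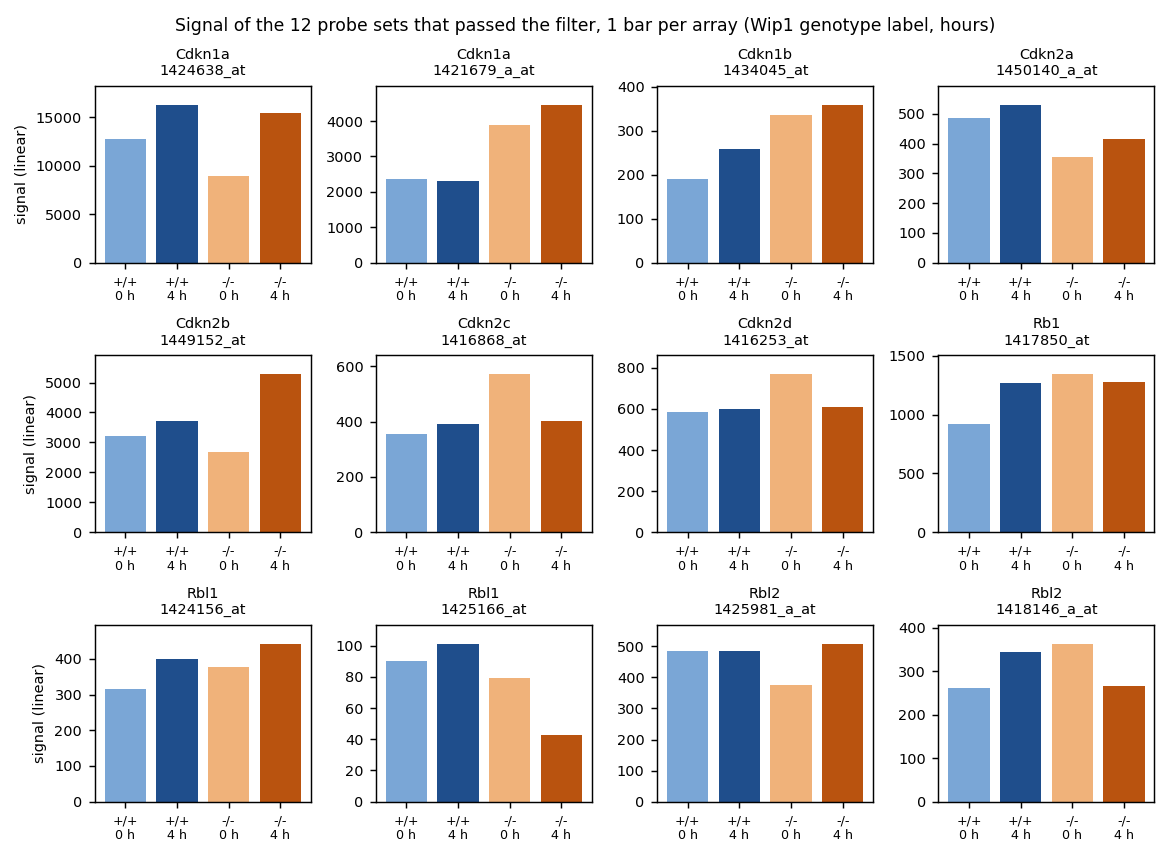
Signal of the 12 member probe sets that passed the filter, on a linear scale that starts at 0 and differs between panels, with 1 bar for each array (Wip1 genotype label and hours). The main Cdkn1a probe set is lowest on the unirradiated array labelled Wip1-/- at 8920, while the other Cdkn1a probe set is higher on both arrays labelled Wip1-/-.

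Cdkn1a was read by 2 probe sets, and they gave different patterns. The first read 12735 in unirradiated and 16318 in irradiated Wip1+/+ cells, and 8920 and 15476 on the arrays labelled Wip1-/-. Both irradiated arrays were above both unirradiated ones, by 1.28-fold in Wip1+/+ and 1.73-fold in cells labelled Wip1-/-. The response was thus wider by 0.44 on the log2 scale in the cells labelled Wip1-/-, through a lower start (1.43-fold below Wip1+/+) and not a higher end (1.05-fold below). This difference between responses was not tested, and the lower start comes from the array with deviating spike-in controls. Set against the mean of both Wip1+/+ arrays, the irradiated array labelled Wip1-/- gave a log2 ratio of 0.10. That control includes an irradiated array, and the ratio holds the genotype difference, so it cannot check the irradiation log2 ratio of 0.79.

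The other Cdkn1a probe set read 2350 and 2313 in Wip1+/+ cells and 3878 and 4461 on the arrays labelled Wip1-/-. Here the arrays separated by genotype label and not by irradiation. Signal was 1.65-fold higher without radiation and 1.93-fold higher after it on the arrays labelled Wip1-/-, and the irradiation ratios were 1.02-fold lower in Wip1+/+ and 1.15-fold higher in cells labelled Wip1-/-. The genotype ratio after irradiation does not use the array that stood apart. Between the probe sets of Cdkn1a the genotype log2 ratios differed by 1.24 without radiation and 1.02 after it, against pooled SDs between probe sets of one gene of 0.55 and 0.23 among those with a mean signal of 500 or more. That SD is of single probe sets around the mean of their gene, and a difference between 2 of them spreads more widely. The SD holds the spread among probes on 2 given arrays, with no part for the spread among cultures. The annotation gives the first probe set from the cDNA AK007630 and the second from the RefSeq transcript NM_007669; which transcripts each one detects was not tested.

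Cdkn1b, the inhibitor whose protein is destroyed as cells enter S phase, read 191 and 259 in Wip1+/+ cells and 335 and 360 on the arrays labelled Wip1-/-. Both arrays labelled Wip1-/- were above both Wip1+/+ arrays, by 1.75-fold without radiation and 1.39-fold after it. Irradiated cells were 1.36-fold higher in Wip1+/+ and 1.07-fold higher in cells labelled Wip1-/-. This rests on 1 probe set: the other read 10.2, 40.1, 53.7 and 1.6, above the floor on 1 array only. Cdkn1c (p57), the Cip/Kip inhibitor that is not among the members, read 1321, 1366, 1494 and 1085 in the same order of arrays, with no ratio reaching 1.5-fold.

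Among the Ink4 inhibitors, Cdkn2b (p15) had the widest response in cells labelled Wip1-/-. It read 3205 and 3727 in Wip1+/+ cells and 2677 and 5278 on the arrays labelled Wip1-/-. Both irradiated arrays were above both unirradiated ones, by 1.16-fold in Wip1+/+ and 1.97-fold in cells labelled Wip1-/-, a difference of 0.76 on the log2 scale that was not tested. The 1.97-fold uses the array with deviating spike-in controls. Set against the mean of both Wip1+/+ arrays, the irradiated array labelled Wip1-/- gave a log2 ratio of 0.61. As for Cdkn1a, that value cannot check the irradiation log2 ratio, which was 0.98. Unlike the first Cdkn1a probe set, Cdkn2b was also higher on the irradiated array labelled Wip1-/- than on both Wip1+/+ arrays, 1.42-fold above the irradiated one.

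Cdkn2a, the neighbour of Cdkn2b on chromosome 4, did not share this order of arrays. Cdkn2a read 487 and 531 in Wip1+/+ cells and 354 and 415 on the arrays labelled Wip1-/-. Both arrays labelled Wip1-/- were below both Wip1+/+ arrays, by 1.38-fold without radiation and 1.28-fold after it. Irradiation ratios were 1.09-fold in Wip1+/+ and 1.17-fold in cells labelled Wip1-/-.

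Cdkn2c (p18) and Cdkn2d (p19Ink4d) stood out on a single array. Cdkn2c read 354 and 393 in Wip1+/+ cells, 572 on the unirradiated array labelled Wip1-/- and 403 on the irradiated one. Cdkn2d read 587, 601, 769 and 609 in the same order. In both genes the other 3 arrays lay close together, within 1.14-fold for Cdkn2c and 1.04-fold for Cdkn2d, and the high value was that of the array with deviating spike-in controls.

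Rb1, the founding tumour suppressor of the pocket family, read 924 and 1269 in Wip1+/+ cells and 1344 and 1275 on the arrays labelled Wip1-/-. The unirradiated Wip1+/+ array was the low one: it lay 1.37-fold below the irradiated Wip1+/+ array and 1.46-fold below the unirradiated array labelled Wip1-/-, and after irradiation the genotypes were level, with a log2 ratio of 0.01. The second Rb1 probe set was above the floor only there, at 61.6, and read 29.9 or less on the other 3 arrays.

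Rbl1, the pocket protein that E2F itself induces, read 315 and 400 in Wip1+/+ cells and 379 and 443 on the arrays labelled Wip1-/- by its bright probe set. Both irradiated arrays were above both unirradiated ones, by 1.27-fold and 1.17-fold. A dim probe set read 90.5, 101, 79.3 and 42.8. It was likewise higher after irradiation in Wip1+/+ cells, with a log2 ratio of 0.16, but the irradiated array labelled Wip1-/- was at the floor, at least 1.71-fold below the unirradiated one and at least 2.18-fold below the irradiated Wip1+/+ array. The remaining 2 Rbl1 probe sets did not pass, with 3 and 4 of the 4 arrays at the floor.

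Rbl2, the pocket protein most abundant in resting cells, was also split between its probe sets. One read 484 and 486 in Wip1+/+ cells and 375 and 508 on the arrays labelled Wip1-/-. The other read 262 and 344, then 363 and 266. The irradiation log2 ratio on the arrays labelled Wip1-/- was 0.44 by the first and -0.45 by the second, and that of unirradiated genotypes -0.37 and 0.47, so these data give Rbl2 no direction in either comparison.

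Counted at 2-fold, the members gave almost no calls in any comparison. In irradiated over unirradiated Wip1+/+ cells 0 of 12 probe sets passed 2-fold, against 3.51% of the 20323 probe sets that passed the filter. On the arrays labelled Wip1-/- it was 0 of 12, against 11.5%, and for the unirradiated genotypes 0 of 12, against 13.3%. For the irradiated genotypes it was 1 of 12, the dim Rbl1 probe set, against 5.47%. These counts are near the background or below it, and 12 probe sets are few. The members' ratios were small and mostly one way in Wip1+/+ cells: 11 of 12 were above 1 after irradiation, with a median log2 ratio of 0.19 and a highest of 0.46 (Rb1), while 10096 of all 20323 probe sets were above 1, with a median of 0.00. The probe set that was not above 1 was the second of Cdkn1a, and the first of Rbl2 turned below 1 under all 3 other scalings (log2 ratios of -0.0212, -0.0097 and -0.0184), which left 10 of 12 above 1. The pooled SD between probe sets of one gene was 0.37 in this comparison, and 3 of the 12 ratios exceeded it: those of Rb1 (0.46), Cdkn1b (0.44) and the second Rbl2 probe set (0.40). Among probe sets with a mean signal of 500 or more the SD was 0.178, and Rb1, the first Cdkn1a probe set (0.36) and Cdkn2b (0.22) were above that. On the arrays labelled Wip1-/- 7 of 12 ratios were above 1, with a median of 0.15 and a range from -0.77 or below to 0.98, and an SD between probe sets of 0.62. The median over all probe sets there was -0.01.

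**Figure D2:**
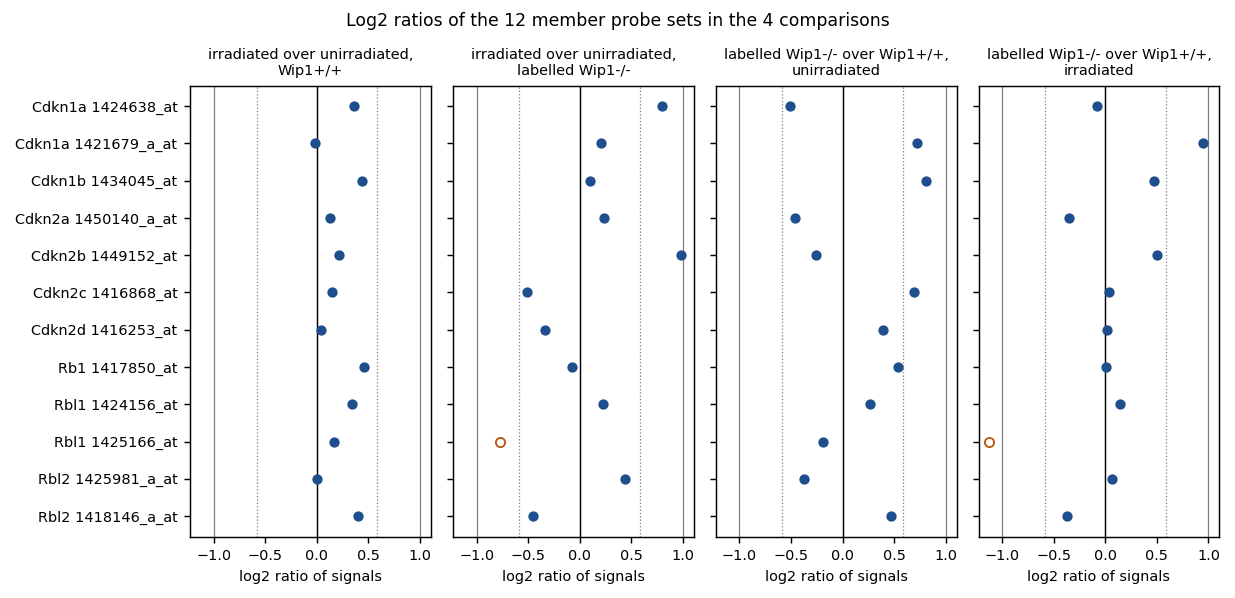
Log2 ratios of signal of the 12 member probe sets in the 4 comparisons; solid grey lines mark 2-fold, dotted lines 1.5-fold, and open circles are bounds against a signal at the floor. In irradiated Wip1+/+ cells all points lie between -0.02 and 0.46, and they spread more widely in the other 3 panels. The irradiated genotypes run from a bound of -1.12 for the dim Rbl1 probe set, the one point past 2-fold, to 0.95 for Cdkn1a. Without that Rbl1 probe set they run from -0.37 to 0.95, and the irradiation ratios on the arrays labelled Wip1-/- from -0.51 to 0.98.

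A lower limit of 1.5-fold, chosen after the values were seen, named a few more. In Wip1+/+ cells 0 of 12 passed it upward and 0 downward after irradiation, against 5.73% and 6.75% of all probe sets. On the arrays labelled Wip1-/- 2 were higher (Cdkn2b and the first Cdkn1a probe set), against 17.0%, and 1 was lower (the dim Rbl1 probe set), against 15.3%. In the unirradiated genotypes 3 were higher (Cdkn1b, Cdkn2c and the second Cdkn1a probe set) and 0 lower, against 16.5% and 17.9%. In the irradiated genotypes 1 was higher (the second Cdkn1a probe set) and 1 lower (the dim Rbl1 probe set), against 7.94% and 7.9%. Among probe sets with a mean signal of 250 or more, which held 11 of the 12, the counts in either direction were 0, 2, 3 and 1, against 3.65%, 25.4%, 27.7% and 7.01% in the same order of comparisons. A share of 2 or 3 in 11 is near the background where the unirradiated array labelled Wip1-/- takes part.

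The order of the 4 arrays gave a second view that uses no fold limit, also added after the values were seen. Both arrays labelled Wip1-/- were above both Wip1+/+ arrays in 5 of 12 member probe sets, against 20.3% of all. These were the second Cdkn1a probe set (1.78-fold as a mean over both conditions), Cdkn1b (1.56-fold), Cdkn2c (1.29-fold), Rb1 (1.21-fold) and Cdkn2d (1.15-fold). In Cdkn2c, Rb1 and Cdkn2d the irradiated genotypes were nearly level, with log2 ratios of 0.04, 0.01 and 0.02. Their mean folds came mainly from the unirradiated pair, at 0.69, 0.54 and 0.39. The array apart in that pair was the one labelled Wip1-/- for Cdkn2c and Cdkn2d, but the Wip1+/+ one for Rb1. Both were below in 2, Cdkn2a (1.33-fold) and the dim Rbl1 probe set, against 18.6%. Both irradiated arrays were above both unirradiated arrays in 4 of 12, against 16.1%. These were Cdkn2b (1.51-fold), the first Cdkn1a probe set (1.49-fold), the bright Rbl1 probe set (1.22-fold) and 1 of Rbl2 (1.17-fold). In Wip1+/+ cells that Rbl2 probe set read 484 and 486. Its ratio there turned below 1 under the other scalings, where its arrays did not separate by irradiation. The other Rbl2 probe set overlapped. Both irradiated arrays were below in 0, against 16.8%. Cdkn1a stands in both views, through a different probe set in each.

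The unirradiated array labelled Wip1-/- was the highest or lowest of the 4 in 8 of 12 member probe sets, and in 72.6% of all probe sets; the other arrays were so in 41.0% to 43.1% of all. Without it, the 3 remaining arrays spanned 1.93-fold in the second Cdkn1a probe set, 1.88-fold in Cdkn1b, 1.65-fold in Cdkn2b and at least 2.18-fold in the dim Rbl1 probe set. In the other 8 member probe sets they spanned 1.04- to 1.40-fold, among them the first of Cdkn1a at 1.28-fold. Over all 4 arrays no member's brightest probe set spanned 2-fold, the widest being Cdkn2b at 1.97-fold, so no gene was named for a pattern like theirs.

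Genes that act with the members were taken from lists compiled from textbook knowledge. In irradiated Wip1+/+ cells the probe sets of cyclins and CDKs had ratios mostly below 1, 23 of 32, with a median log2 ratio of -0.17. Besides those that the members inhibit, the list held Cdk7, Ccnh and Mnat1 of the CDK-activating kinase. E2F target genes had 25 of 36 below 1 and a median of -0.13, and MuvB genes 8 of 11 and -0.19. MuvB genes here are those of the MuvB core, which joins Rbl1 and Rbl2 in DREAM, and its partners Mybl2 and Dyrk1a. In these 3 lists 0 probe sets reached 2-fold in either direction in Wip1+/+ cells, against 3.51% of all probe sets. Ccna2, the S phase cyclin, was lower after irradiation by both of its probe sets. Their log2 ratios were -0.31 and -0.50 in Wip1+/+, and cells labelled Wip1-/- gave -0.46 and -0.43. Mcm2, a subunit of the replicative helicase, read 1266 and 729 in Wip1+/+ cells and 721 and 1704 on the arrays labelled Wip1-/- by one probe set, but 1081, 891, 1056 and 911 by the other.

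On the arrays labelled Wip1-/- the same lists showed no common direction. Over all 20323 probe sets 1354 were at least 2-fold higher after irradiation there and 976 lower. After irradiation cyclins and CDKs had 16 of 32 probe sets above 1, with a median of 0.03 that turned below 0 under quantile normalization, and 1 at least 2-fold higher. This was Ccnd2, cyclin D2, which read 750 and 1908 by that probe set, while its other 6 had log2 ratios from -0.44 to 0.26. E2F targets had a median of -0.14, with 2 of 36 at least 2-fold higher (Mcm2 and Mcm3) and 2 lower (Orc1 and Mcm6), each beside another probe set of the gene that was under 2-fold. E2F and DP factors had a median of -0.29 with 0 of 16 past 2-fold, and MuvB genes one of 0.15 with 2 of 11 higher, both of Dyrk1a, the kinase that assembles DREAM, whose remaining probe set had a log2 ratio of -0.87.

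Between the unirradiated genotypes 0 of 32, 0 of 16, 0 of 11 and 1 of 36 probe sets of cyclins and CDKs, E2F and DP factors, MuvB genes and E2F targets were at least 2-fold higher on the array labelled Wip1-/-, and 2, 1, 3 and 4 lower. The higher one was of Orc1. The lower ones were of Ccnd2 and Ccne1, of E2f6, of Dyrk1a (2 probe sets) and Rbbp4, and of Mcm3 (2 probe sets), Mcm6 and again Ccne1, which is on both lists. Other passing probe sets of these genes often differed: E2f6 had log2 ratios of -1.03 and 0.51, and Rbbp4 of -1.29, -0.26 and 0.76. Over all 20323 probe sets 1131 were at least 2-fold higher in this comparison and 1568 lower. Between the irradiated genotypes cyclins and CDKs had 0 higher and 1 lower (a probe set of Cdk7, the CDK-activating kinase, whose other passing probe sets had log2 ratios of -0.31 to 0.59, with a bound of -0.85 from one that did not pass), E2F targets 1 higher (Mcm2) and 0 lower, and the other 2 lists 0 in both directions. The medians of all 4 lists lay between -0.01 and 0.03 in that comparison, where 551 of all 20323 probe sets were at least 2-fold higher and 560 lower.

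**Figure D3:**
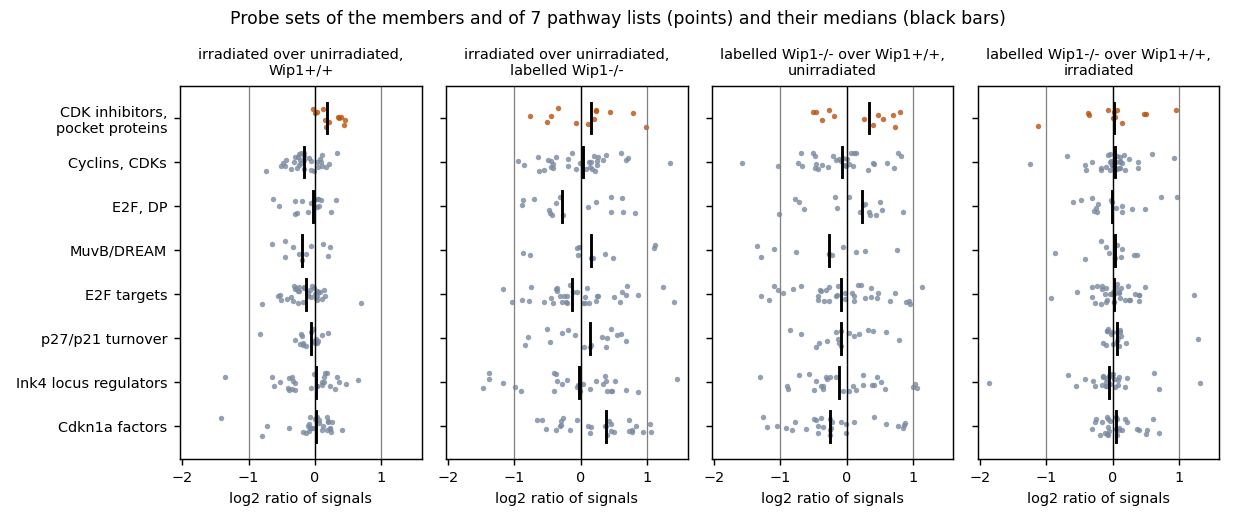
Log2 ratios of the member probe sets (top row) and of probe sets in 7 lists of genes that act with them, in the 4 comparisons; each point is a probe set, black bars are medians and grey lines mark 2-fold. In irradiated Wip1+/+ cells the members' median is 0.19 and that of cyclins and CDKs -0.17; after irradiation the lists' genotype medians lie between -0.05 and 0.06.

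Genes that regulate the members were measured too. Id2, which restrains factors that activate Cdkn1a and Cdkn2a, was lower after irradiation by both probe sets that passed: one read 924 and 360 in Wip1+/+ cells and 670 and 337 on the arrays labelled Wip1-/-, and the other 2092, 1455, 1696 and 913. It was the only probe set of 28 in the list of Ink4 locus regulators past 2-fold in Wip1+/+ cells, with a log2 ratio of -1.36. On the arrays labelled Wip1-/- that list had 1 of 28 at least 2-fold higher, of Ets1, an activator of Cdkn2a, and 4 lower, of Bmi1, Tbx3 and, as bounds, Ets2 and Suz12. Other passing probe sets of these genes were under 2-fold or opposite in direction. The log2 ratios were -0.36, -0.21 and 0.39 in the others of Ets1, 0.87 in that of Tbx3, 0.04 in that of Ets2, and -0.40, 0.38 and 0.69 in those of Suz12. Bmi1, the Polycomb protein that silences the Ink4 locus, read 2106, 2023, 3136 and 1384 by that probe set and 1044, 826, 561 and 771 by its other, which went the opposite way. Transcription factors known to act on Cdkn1a had 18 of 28 probe sets above 1 there, with a median of 0.37, and 2 at least 2-fold higher, of Smad4, whose other 2 were at 0.45 and 0.49, and, as a bound, of Runx1, whose other passing 4 ran from -0.52 to 0.72. In Wip1+/+ cells 1 of 28 passed, of Tcf3, at -1.41, while its other passing probe set was at 0.23. Genes of p27 and p21 turnover had a median of -0.06 in Wip1+/+ and 0.13 in cells labelled Wip1-/-, with 0 of 17 past 2-fold in either; Skp2, the ubiquitin ligase subunit that marks p27, had 6 probe sets with log2 ratios from -0.79 to 0.55 after irradiation in cells labelled Wip1-/-. Between genotypes without radiation the lists of Ink4 regulators, Cdkn1a factors and turnover genes had 2, 0 and 0 probe sets at least 2-fold higher on the array labelled Wip1-/- and 1, 3 and 0 lower; after radiation they had 1, 0 and 1 higher and 1, 0 and 0 lower. Without radiation these were Ets1 and one probe set of Tbx3 higher and the other of Tbx3 lower, and Smad4, Tcf3 and, as a bound, Runx1 lower. After it they were Cbx7 and, as a bound, Skp2 higher and, as a bound, Ets2 lower. Skp2's other 5 probe sets ran from -0.10 to 0.06. Of all probe sets, 3.51% passed 2-fold in either direction after irradiation in Wip1+/+ cells and 11.5% on the arrays labelled Wip1-/-. Between genotypes the shares were 13.3% without radiation and 5.47% after it.

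Macrophage markers moved with the genotype label. All 12 macrophage marker probe sets that passed were lower on the arrays labelled Wip1-/-. Of these, 8 were at least 2-fold lower without radiation and 9 after it, against 1568 and 560 of all 20323 probe sets. Summed signal over all 16 macrophage marker probe sets was 10060 and 9983 for Wip1+/+ at 0 h and 4 h, against 2707 and 2514 under the Wip1-/- label. Of the 16, 4 were at the floor on every array, among them the only ones of Aif1 and Itgam. In bulk RNA fewer cells of a type and less RNA per cell cannot be told apart, and the part of this difference in the genotype ratios of Cdkn1a, Cdkn1b and Cdkn2a was not tested. Epithelial markers were dim, with 3 of 11 probe sets passing, and their summed signal was higher under the Wip1-/- label, at 1419 and 1442 against 1008 and 822. Krt18 read 552 and 572 in Wip1+/+ cells and 818 and 842 on the arrays labelled Wip1-/-, Krt8 was also higher on both, and Epcam read 142, 13.3, 83.1 and 195 with no common order. Endothelial markers had a summed signal over all 7 probe sets of 670 and 609 against 565 and 483, but no common direction. Of the 4 that passed, 3 were higher and 1 lower under the Wip1-/- label without radiation, with a median log2 ratio of 0.47. After it 2 were higher and 2 lower, with a median of -0.06. The part of these lists in the members' ratios was not tested either. Summed fibroblast marker signal was 310100, 294400, 456900 and 322400, highest on the unirradiated array labelled Wip1-/-.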

How the data were processed

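RNA of 4 samples was measured on Affymetrix arrays, and the authors deposited 1 signal intensity per probe set and array on a linear scale. The submitters' processing notes name GCOS, with no version; how it corrected background and scaled is not stated in the sources used here. The mean after trimming 2% at each end was 500.0 in all 4 deposited columns, so the values were used as given. Probe sets were named by the platform annotation, and those with several symbols (932) or none (9160) were left out. A floor of 46.5, which 40% of all values lie under, replaced lower signals; a ratio with 1 side there is a bound. Probe sets entered counts at a mean signal of at least 68.0, the median of all means, which 20323 did. Comparisons were log2 ratios of 2 arrays, with no test. As a yardstick, the spread of log2 ratios among a gene's probe sets was pooled into an SD over genes. Alternatives were 2 other floors and filters, other scalings, 1 value per gene and another control. Ratios and counts were tested on simulated data. Members and lists were chosen with earlier results of these data known. Of the lists, genes with a passing probe set at least 2-fold apart were named; Ccna2 was picked after its values were seen. R 4.3.3 with limma 3.58.1 made the normalized alternatives and Python 3.11.15 with numpy 2.4.6 the rest.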

Additional observations from a re-analysis of the deposited data

How the results depend on the processing

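No paired analysis was possible because each group held 1 array, and no array could be left out of its group. Median ratios of the members kept their sign under quantile normalization, cyclic loess, scaling by the brighter probe sets, both other floors and the stricter filter. The median on the arrays labelled Wip1-/- after irradiation went from 0.15 to 0.0 with no filter, and to -0.0039 when each gene was given the median of its probe sets. The single 2-fold call between irradiated genotypes fell to 0 with a filter at the 67th percentile, with the brightest probe set per gene and with the median over probe sets, each of which leaves out or averages the dim Rbl1 probe set. With the mean of both Wip1+/+ arrays as control, 1 member probe set passed 2-fold in the irradiated cells labelled Wip1-/-, against 0. This was the dim Rbl1 probe set, lower with a bound of -1.04. The Cdkn1a ratios were 0.10 and 0.94, against 0.79 and 0.20. With this control the ratios hold the genotype difference and an irradiated control array, so they cannot check the irradiation response. At 1.5-fold, added after the values were seen, the counts were 3 and 3 in the 2 comparisons with the unirradiated array labelled Wip1-/- and 2 between irradiated genotypes. How far a signal stands over background limits Rbl1 and the probe sets that did not pass.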
